A study of Danio rerio with 4 samples.

Results

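The deposited small RNA table of zebrafish larvae held 245 entries, of which 4 were named miR-203 or miR-205, whatever their letter or arm: miR-203a, miR-203b-3p, miR-203b-5p and miR-205. The rule used the names and no measured value, although it was set with earlier results of these data known. All 4 passed the filter of a mean of at least 10 normalized counts that left 234 miRNAs for comparison. The larvae were wild-type fish of the Tuebingen strain, sequenced whole at 6 dpf (days post fertilization). There was 1 library each of larvae of a blank control without BDE47, of larvae given DMSO (vehicle control), and of larvae given BDE47 in DMSO at 5 μg/L or at 500 μg/L. Whether the blank control had DMSO is not given by its label. BDE47 is 2,2',4,4'-tetrabromodiphenyl ether, a brominated flame retardant, and DMSO is the solvent in which it was given. Each library came from RNA of pooled larvae. No difference between conditions therefore has a replicate check, no test between conditions was made, and each value describes these libraries.

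miRNAs are short noncoding RNAs that lower the translation or stability of mRNAs that carry a matching site. The hairpin precursor of a miRNA can give a product from its 5′ side (5p) and one from its 3′ side (3p), and the more abundant product is usually the one loaded into the silencing complex. miR-203 is known from mammalian skin, where it is switched on as keratinocytes leave the basal layer and represses p63, a transcription factor of epidermal progenitors. In zebrafish, miR-203 has been linked to fin regeneration. miR-205 is known from stratified epithelia such as skin, and in mammalian cells it acts beside the miR-200 family on the transcription factors Zeb1 and Zeb2, which repress epithelial genes. The 2 letters of miR-203 stand for separate genes. In the RefSeq annotation of the GRCz12tu assembly, each of the 3 hairpins matched a gene of the miRNA class. No other miRNA gene was annotated within 50000 bases of any of them. mir203a had the protein-coding genes aspg and kif26ab as its nearest on either side, mir203b had tmem179aa on one side, and dre-mir-205 lay within the span of plxna2, which encodes a plexin receptor. The strand, and whether it is an exon or an intron there, were not analysed here.

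The values are normalized counts, that is, reads divided by 1 size factor per library. Reads were recovered from the values, because 100% of the values were whole multiples of 1 number per library within 0.01 of a read. Listed reads ranged from 8858169 to 10357704 per library. The 95% intervals given are exact Clopper-Pearson intervals from these reads unless stated. They cover only the error of counting reads. Copies made by PCR are not independent molecules, so the intervals can be too narrow for counts of molecules. The 4 entries together took 2.09% of the listed reads of the blank control, 2.14% of the vehicle control, 1.97% of the 5 μg/L library and 2.19% of the 500 μg/L library. Entries of every tissue list examined (surface epithelium, muscle, nervous system, liver, blood cells, gut, pancreas and sensory cells) were above 0 in all 4 libraries. So were 238 of all 245 entries, so this says little about the tissues. In RNA of whole larvae, fewer cells of a type and less of a miRNA per cell cannot be told apart.

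miR-205 was the most abundant of the 4 entries in 3 libraries. It had 105482 normalized counts in the blank library, 88711 in the vehicle library, 95675 under 5 μg/L and 90003 under 500 μg/L BDE47. It was highest in the blank control and lowest in the vehicle control, so both BDE47 libraries lay between the controls. Its rank among all entries ran from 13 in the blank control to 17 at 500 μg/L.

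miR-203b-3p, the abundant product of the mir203b hairpin, had 69340 normalized counts in the blank library, 80099 in the vehicle library, 78028 under 5 μg/L and 98676 under 500 μg/L BDE47. The 500 μg/L library was the highest and the blank control the lowest, and the 5 μg/L library lay between the controls. Its rank was 21 in the blank control and 16 at 500 μg/L.

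miR-203a, the product of the paralogous gene, had 19183 normalized counts in the blank library, 26299 in the vehicle library, 21056 under 5 μg/L and 20824 under 500 μg/L BDE47. The vehicle control stood above the other 3 libraries, which lay close together. The entry carries no arm in the table.

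miR-203b-5p, the minor product of the mir203b hairpin, had 4837 normalized counts in the blank library, 4135 in the vehicle library, 4361 under 5 μg/L and 4970 under 500 μg/L BDE47. The 500 μg/L library and the blank control were the higher ones. Read counts of different miRNAs also depend on how well each sequence was captured, so the order of the 4 entries is an order of reads. In that order, miR-203b-5p was below miR-203a and miR-203a was below the other entries in every library.

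**Figure D1:**
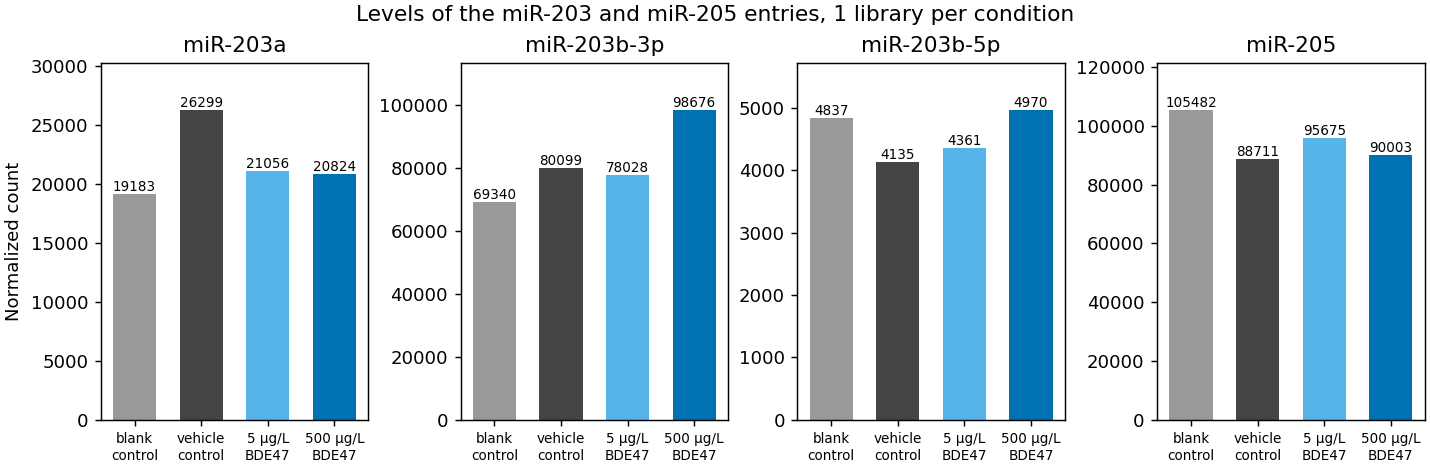
Normalized counts (y axis, with its own scale in each panel, starting at 0) of miR-203a, miR-203b-3p, miR-203b-5p and miR-205 in the 4 libraries (x axis). Each bar is 1 library and its value stands above it. miR-203b-3p reaches its highest level, 98676, at 500 μg/L BDE47, miR-203a its highest, 26299, in the vehicle control, and miR-205 its highest, 105482, in the blank control.

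The entries varied little between libraries. The highest library was 1.42 times the lowest for miR-203b-3p, 1.37 times for miR-203a, 1.20 times for miR-203b-5p and 1.19 times for miR-205. On the log2 scale these ranges were 0.51, 0.46, 0.27 and 0.25. The median range over the 234 miRNAs was 0.37, so the abundant miR-203 entries varied more than the median miRNA, and miR-203b-5p and miR-205 less.

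The study set both concentrations against the vehicle control and called miRNAs beyond 2-fold that also met p-value and FDR criteria. Only the fold criterion was applied here. At 5 μg/L BDE47, 0 of the 4 entries passed 2-fold against the vehicle control, where 2.99% of the 234 miRNAs did. miR-203a had a log2 ratio (of normalized counts after adding 1, as for all such ratios) of -0.32 (95% counting interval -0.35 to -0.30). miR-205 had 0.11 (0.10 to 0.12), miR-203b-5p 0.08 (0.02 to 0.14) and miR-203b-3p -0.04 (-0.05 to -0.02). miR-203a was thus lower than in the vehicle control by 19.9%, and the other 3 entries differed from it by at most 7.85%. With libraries scaled to the total of listed reads (total scaling), miR-203b-5p and miR-205 turned sign, to -0.04 (-0.10 to 0.02) and -0.01 (-0.03 to 0). All 4 intervals excluded 0, which 78.6% of the 234 miRNAs also did at this depth, so passing counting error says little about the members. The median absolute log2 ratio was 0.09 over the 4 entries and 0.19 over all 234 miRNAs.

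At 500 μg/L, 0 of the 4 entries passed 2-fold against the vehicle control, where 8.97% of the 234 miRNAs did, and 0 passed 1.5-fold, where 20.9% did. miR-203b-3p had a log2 ratio of 0.30 (0.29 to 0.31), or 1.23 times the vehicle control. miR-203b-5p had 0.27 (0.21 to 0.32), or 1.20 times, so both products of mir203b were higher. miR-203a had -0.34 (-0.36 to -0.31), or 0.792 times, in the opposite direction from its paralog. miR-205 had 0.02 (0.01 to 0.03) and differed from the vehicle control by 1.46%, and with total scaling its log2 ratio was -0.06. The median absolute log2 ratio was 0.28 over the 4 entries and 0.29 over all 234 miRNAs.

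The blank control, which received no BDE47, showed how far libraries differed without it. Its label does not say whether it had DMSO, so DMSO and other differences between the 2 control libraries cannot be told apart. Against the vehicle control, 0 of the 4 entries passed 2-fold there, where 1.28% of the 234 miRNAs did. The log2 ratio was -0.46 (-0.48 to -0.43) for miR-203a, -0.21 (-0.22 to -0.19) for miR-203b-3p, 0.23 (0.17 to 0.29) for miR-203b-5p and 0.25 (0.24 to 0.26) for miR-205. At 5 μg/L, each of the 4 entries was nearer to the vehicle control than the blank control was. Being nearer follows from their levels, which all lay between the controls, and is no separate result. How many of the 234 miRNAs were nearer was not counted for either concentration. At 500 μg/L, miR-203a and miR-205 were also nearer, whereas miR-203b-3p (0.30 against -0.21) and miR-203b-5p (0.27 against 0.23) were farther. With total scaling, miR-203b-3p was nearer too (0.22 against -0.24), and miR-203b-5p had 0.19 against 0.20. The median absolute log2 ratio between the controls was 0.24 over the 4 entries and 0.19 over all 234 miRNAs.

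**Figure D2:**
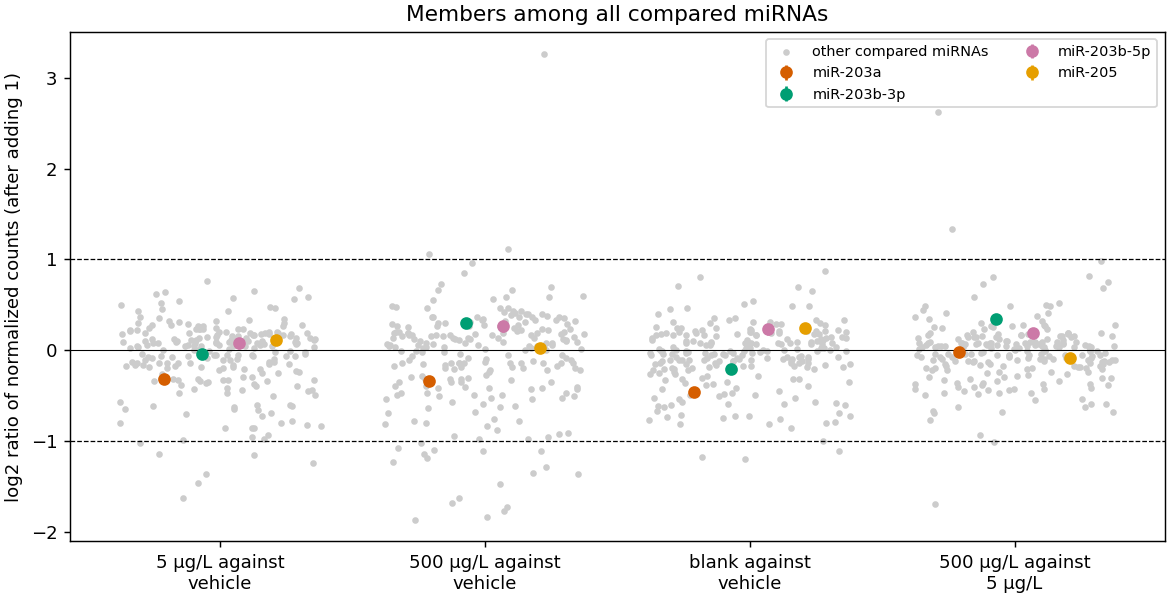
Log2 ratios of normalized counts after adding 1 (y axis) for 4 comparisons (x axis). Coloured points are the 4 entries with their 95% counting intervals, mostly smaller than the points, grey points are the other compared miRNAs spread sideways for visibility, and dashed lines mark 2-fold. All 4 entries sit inside the dashed lines in each comparison, from -0.46 (miR-203a, blank control) to 0.34 (miR-203b-3p, 500 μg/L against 5 μg/L).

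Set against both controls at once, all 4 entries at 5 μg/L lay between the blank and the vehicle control, as did 32.1% of the 234 miRNAs. With total scaling, 2 of the 4 lay between, and miR-203b-5p and miR-205 lay below both by level, although their intervals against the vehicle control reached 0. Total scaling shifted the median miRNA by -0.12 in that comparison, so the lower position need not be particular to these entries. How many of the 234 miRNAs took each position under total scaling was not counted for either BDE47 library. At 500 μg/L, miR-203a and miR-205 lay between the controls, where 21.8% of the miRNAs did, and miR-203b-3p and miR-203b-5p lay above both, where 40.2% did. Only miR-203b-3p of the 4 was above both controls with counting intervals that excluded 0, as were 29.9% of the 234 miRNAs. Its log2 ratio to the blank control was 0.51 (0.49 to 0.52), which left it the 13th highest of the 234. miR-203b-5p had 0.04 (-0.02 to 0.10) against the blank control. The signs of the other entries depended on the control. miR-203a at 500 μg/L had 0.12 (0.09 to 0.15) against the blank control, and miR-205 had -0.23 (-0.24 to -0.22). With total scaling, miR-203b-3p stayed above both controls, miR-203b-5p lay between them and miR-205 lay below both. The median miRNA was shifted by -0.08 against the vehicle control there.

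Between the BDE47 libraries, 500 μg/L against 5 μg/L, 0 of the 4 entries passed 2-fold, where 1.71% of the 234 miRNAs did. miR-203b-3p had a log2 ratio of 0.34 (0.33 to 0.35), the 21st highest of the 234. miR-203b-5p had 0.19 (0.13 to 0.25) and miR-205 -0.09 (-0.10 to -0.07). miR-203a did not differ detectably at this depth (-0.02, interval -0.04 to 0.01). Among the 4 entries, the mir203b products, which come from the same hairpin, were the ones that were higher at the higher concentration. With total scaling, miR-203a turned sign, to 0.03 (0 to 0.06).

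Ratios within a library do not depend on its size factor, and they set the paralogs apart. The reads of miR-203b-3p were 3.61 times those of miR-203a in the blank library (95% interval 3.56 to 3.68), 3.05 times in the vehicle library (3.01 to 3.09), 3.71 times under 5 μg/L (3.65 to 3.76) and 4.74 times under 500 μg/L (4.67 to 4.81). The 500 μg/L library had the highest ratio of these abundant products and the vehicle control the lowest, and the intervals of the blank control and 5 μg/L libraries overlapped. From the vehicle control to 500 μg/L, the ratio differed by 0.64 on the log2 scale (Wald counting interval 0.61 to 0.67), or 1.56-fold. Pairs of paralogs were miR entries of the same number and different letters. The let-7 entries and pairs with unlike named arms were left out, and pairs in which an entry names no arm were kept. Of 130 such pairs, 25.4% differed by more than 1.5-fold in this comparison. Their median absolute log2 change was 0.27, and 27 pairs differed by more than miR-203b-3p and miR-203a. Against the blank control, the ratio of miR-203b-3p to miR-203a differed by 0.39 (0.36 to 0.42) at 500 μg/L. There the median pair differed by 0.17 and 21 of the 130 pairs by more. Many of these pairs share an entry. The minor product did not have its highest ratio at 500 μg/L. The reads of miR-203b-5p were 0.252 times those of miR-203a in the blank library (0.244 to 0.261), 0.157 times in the vehicle library (0.152 to 0.162), 0.207 times under 5 μg/L (0.201 to 0.214) and 0.239 times under 500 μg/L (0.231 to 0.246). From the vehicle control, this ratio differed by 0.68 on the log2 scale in the blank control (Wald interval 0.62 to 0.75) and by 0.60 at 500 μg/L (0.54 to 0.67). How the authors assigned reads that match both miR-203a and miR-203b was not stated, so the split between the paralogs is uncertain to that extent.

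The arms of mir203b were compared in the same way. Reads of the 3p product were 14.3 times those of the 5p product in the blank library (13.9 to 14.8), 19.4 times in the vehicle library (18.8 to 20.0), 17.9 times under 5 μg/L (17.4 to 18.4) and 19.9 times under 500 μg/L (19.3 to 20.4). The blank control stood below the other 3 libraries, and the intervals of the vehicle control and 500 μg/L libraries overlapped. Between those 2 libraries the arm ratio differed by 0.04 on the log2 scale (Wald interval -0.02 to 0.10). The median absolute change over 32 hairpins with both arms compared was 0.44, and 31 of the 32 differed by more. The 32 include mir203b itself. Their arms needed only a mean of 10 normalized counts, and counting error is larger for scarce arms, so the hairpins are not matched in depth. Between the controls it differed by -0.43 (-0.50 to -0.37), where the median absolute change was 0.31 and 9 of the 32 hairpins moved by more.

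miR-205 and miR-203b-3p exchanged places at 500 μg/L. The reads of miR-205 were 1.52 times those of miR-203b-3p in the blank control (1.51 to 1.54), 1.11 times in the vehicle control (1.10 to 1.12) and 1.23 times at 5 μg/L (1.21 to 1.24), but 0.912 times at 500 μg/L (0.904 to 0.921). Against the vehicle control, this ratio differed by 0.46 on the log2 scale in the blank control and by -0.28 at 500 μg/L. Against the blank control, it differed by -0.74 at 500 μg/L (Wald interval -0.76 to -0.72). As a share of the reads of the 4 entries, miR-205 held 53.0% in the blank library, 44.5% in the vehicle library, 48.0% under 5 μg/L and 42.0% under 500 μg/L. miR-203b-3p held 34.9%, 40.2%, 39.2% and 46.0% in the same order.

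**Figure D3:**
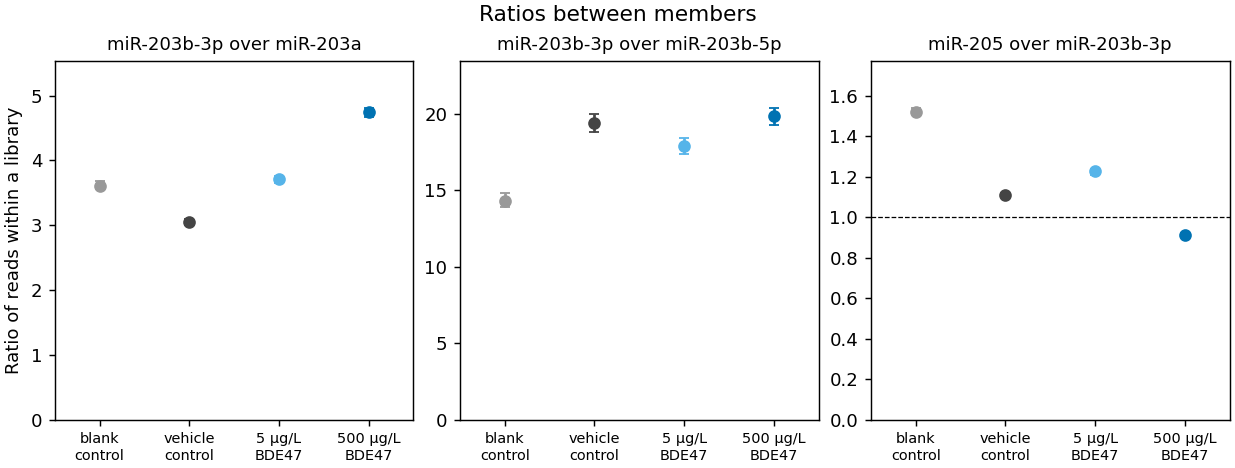
Ratio of reads within each library (y axis, from 0) for miR-203b-3p over miR-203a, miR-203b-3p over miR-203b-5p, and miR-205 over miR-203b-3p, in the 4 libraries (x axis). Points are single libraries, bars are 95% counting intervals, and the dashed line in the right panel marks equal reads. The ratio of the paralogs is highest at 500 μg/L (4.74), the arm ratio is lowest in the blank control (14.3), and miR-205 drops below miR-203b-3p at 500 μg/L (0.912).

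The surface epithelium list was drawn up from general knowledge and is not meant to be complete. Its other entries were miR-141, miR-200a, miR-200b, miR-200c, miR-429a and miR-429b. All belong to the miR-200 family, which maintains the epithelial state in mammalian cells. These 6 entries together took between 0.587% and 0.677% of the listed reads, against 1.97% to 2.19% for the 4 entries of miR-203 and miR-205. At 500 μg/L, 6 of 6 were higher than in the vehicle control by their counting intervals, as were 39.7% of the 234 miRNAs, with log2 ratios from 0.04 for miR-200a to 0.40 for miR-200c and a median of 0.20, beside 0.02 over all miRNAs. With total scaling, 5 of 6 were higher and 1, miR-200a, was lower, with a median of 0.12 beside -0.06. At 1.5-fold, 0 of the 6 were beyond the vehicle control, where 20.9% of the miRNAs were. Against the blank control, 5 of 6 were higher, where 37.6% of the miRNAs were, and miR-429b had 0.10 (-0.06 to 0.26). Against 5 μg/L, 6 of 6 were higher, where 34.6% were, with a median of 0.15. The 6 entries are of 1 family, so these counts need not be of 6 separate observations.

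At 5 μg/L, 3 of the 6 were higher than in the vehicle control, where 39.3% of the miRNAs were, and 1, miR-200a, was lower at -0.11, with a median of 0.09. The median over all miRNAs was 0.02. With total scaling, 0 were higher, 2 were lower and 4 had intervals that included 0. Their median was then -0.03, beside -0.1 over all miRNAs, so it stayed above that of all miRNAs in both scalings. Shares of the 234 miRNAs that were higher or lower under total scaling were not counted at either concentration. miR-203b-3p was higher at 500 μg/L than in each of the other libraries, as were 5 of these 6 (without miR-200a under total scaling), all but miR-429b, whose interval against the blank control included 0. The share of the 234 miRNAs higher than in all other libraries at once was not counted. By their intervals, 29.9% of the 234 were above both controls and 34.6% were higher than at 5 μg/L. miR-203a at 500 μg/L was lower than in the vehicle control, and miR-205 lower than in the blank control and the 5 μg/L library. Whether the members and the miR-200 family differ was not tested. Of the other tissue lists, all but blood cells lay outside the range of the other libraries at 500 μg/L. Their shares of the listed reads are tied together, so a lower share of the gut list alone raises the others. The gut list took 12.4% of the listed reads there and from 16.4% to 18.5% in the other libraries, the nervous system list 1.12% against 1.20% to 1.44%, and the sensory cell list 12.5% against 11.1% to 11.9%. The surface epithelium list as a whole took 2.86% against 2.57% to 2.79%. The remaining lists were muscle (0.509% against 0.463% to 0.479%), liver (0.0453% against 0.0477% to 0.0579%), blood cells (0.0485% against 0.0417% to 0.0580%) and pancreas (0.220% against 0.234% to 0.273%). The part of these differences in the levels of the members was not tested.

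**Figure D4:**
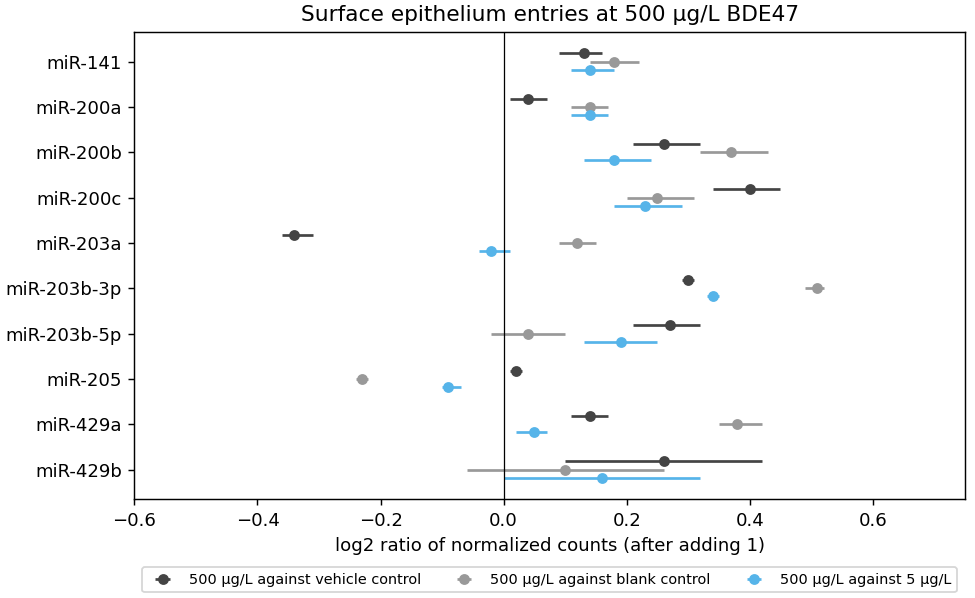
Log2 ratios of normalized counts after adding 1 (x axis) at 500 μg/L BDE47 for the 10 surface epithelium entries (y axis), against the vehicle control, the blank control and the 5 μg/L library. Points are single pairs of libraries and bars are 95% counting intervals. The miR-200 family entries, miR-203b-3p and miR-203b-5p have their points to the right of 0 against all 3 libraries, from 0.04 for miR-203b-5p against the blank control (its interval includes 0) up to 0.51 for miR-203b-3p, while miR-203a (-0.34 against the vehicle control) and miR-205 (-0.23 against the blank control) fall on both sides. The interval of miR-429b against the blank control also includes 0.

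Each member had other miRNAs with nearly the same profile over the 4 libraries, measured as the root mean square difference of log2 levels after centring each miRNA on its own mean. For miR-203b-3p the nearest were miR-126a-3p (0.020), miR-200b (0.065) and miR-27c-5p (0.071), where the median miRNA lay at 0.236. miR-126a-3p, a miRNA of blood vessel endothelium, had 6038, 6822, 6545 and 8511 normalized counts in the blank control, vehicle control, 5 μg/L and 500 μg/L libraries. For miR-203a they were miR-725 (0.050), miR-135a (0.055) and miR-1 (0.078), a miRNA of muscle, where the median lay at 0.234. miR-725 had 5097, 7058, 5179 and 5526 normalized counts in the same order, with the vehicle control highest as in miR-203a.

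For miR-205 they were miR-455b (0.026), miR-122 (0.029), a miRNA of liver, and miR-15b (0.033), with a median of 0.179. miR-122 had 5501, 4434, 4833 and 4443 normalized counts in the same order. For miR-203b-5p they were miR-727-5p (0.011), miR-429b (0.032) and miR-27e (0.047), with a median of 0.177. Among the members, the nearest pair was miR-203b-5p and miR-205 (0.114), the arms of mir203b lay at 0.185, and miR-203a lay at 0.227 from miR-203b-3p. With 234 miRNAs and 4 libraries, close profiles are a description of these libraries.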

How the data were processed

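Small RNA of pooled whole zebrafish larvae was sequenced, 1 library per condition, and columns were matched to libraries by label. The authors filtered reads by quality, length and adaptor and aligned the rest to the zebrafish part of miRBase. The signal they deposited is a read count divided by a size factor, which ran from 0.933 to 1.09 over the libraries. These factors equalled median ratios to the geometric mean, a scaling that takes the typical miRNA as unchanged. The small RNA kit is named in the study's methods, while the labels name an RNA kit.

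A count of 1 was added before log2 ratios were taken, and miRNAs with a mean under 10 normalized counts were left out, which kept 234. With no replicates, no test between conditions was made. Counting intervals were exact, except those of changes of ratios between entries (Wald). In a simulation of 500 μg/L against the vehicle control with counting error alone, on 234 miRNAs, 96.2% of the intervals held the true ratio. This checks the calculation only, because the simulation held no difference between libraries of the same condition. The study's EBSeq test was not run.

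All entries numbered 203 or 205 and all of the surface epithelium list are named, with the 3 miRNAs of other numbers most like each member. The members and lists were chosen with earlier results of these data known. Shared seeds and target sites were not analysed here. Alternatives were pseudocounts of 0.1 and 10, no filter or a mean of at least 100, a fold threshold of 1.5, other scalings and other controls. Summing both arms of miR-203b was added after seeing the data. Calculations used scipy 1.17.1, pandas 2.3.3 and numpy 2.4.6 under Python 3.11.15, and figures matplotlib 3.10.9.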

Additional observations from a re-analysis of the deposited data

How the results depend on the processing

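No paired analysis was possible because each condition has 1 library, and for the same reason no replicate was left out. Of 80 alternative log2 ratios of the 4 entries, 50 stayed within their counting intervals, 14 changed sign and 0 passed 1.5-fold. The pseudocounts of 0.1 and 10 and the scaling over miRNAs with a mean of at least 100 each kept 16 values within their intervals. These settings could hardly move a value. The entries had 4135 or more normalized counts, and that scaling shifted the median miRNA by at most 0.01. Most of the 50 came from these settings, so that count says little about stability. Scaling to the total of listed reads kept 2 values within their intervals, and neither change of control kept any. The 3 miRNAs most like each entry were kept with a filter of a mean of at least 100 and with scaling to the total of listed reads. Neither alternative could be expected to change them. Scaling a library shifts all its miRNAs nearly alike, which cancels in this measure. The named miRNAs all had more than 100 normalized counts, so the stricter filter could not remove them. Summing the arms of miR-203b left the changes of its ratio to miR-203a within their intervals.

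Set against the blank instead of the vehicle control, the log2 ratios of miR-203a, miR-203b-3p, miR-203b-5p and miR-205 were 0.13, 0.17, -0.15 and -0.14 at 5 μg/L, each with its sign turned, and 0.12, 0.51, 0.04 and -0.23 at 500 μg/L, with the signs of miR-203a and miR-205 turned. With the mean of both controls they were -0.11, 0.06, -0.04 and -0.02 at 5 μg/L and -0.13, 0.40, 0.15 and -0.11 at 500 μg/L. These shifts follow from the levels of the control libraries themselves.

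Scaling to the total of listed reads shifted the median miRNA against the vehicle control by -0.12 (5 μg/L) and -0.08 (500 μg/L). The 4 entries in the same order then had -0.44, -0.16, -0.04 and -0.01 at 5 μg/L and -0.41, 0.22, 0.19 and -0.06 at 500 μg/L against the vehicle control. The blank control gave -0.49 for miR-203a, -0.24 for miR-203b-3p and 0.22 for miR-205, and 500 μg/L against 5 μg/L gave 0.03, 0.38 and -0.04 for these 3. Counts over all 234 miRNAs moved with a 1.5-fold threshold, from 7 to 36 at 5 μg/L, 21 to 49 at 500 μg/L, 3 to 31 in the blank control and 4 to 21 between the concentrations. Total scaling gave 11 at 5 μg/L. Without the filter, the blank control and the comparison of concentrations each gave 7, over all 245 entries. That set adds entries with a mean under 10 normalized counts.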
